A study of Mus musculus with 18 samples.

Results

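The replication-independent histone variants are, as a class, histones whose genes can be transcribed apart from DNA replication and whose messages usually end in a poly(A) tail. The set described here has 10 genes: H2afz, H2afv, H2afx, H2afy, H3f3a, H3f3b, H1f0, H1fx, Cenpa and Slbp. They were chosen with earlier results of these data known and were found in the count table by gene symbol alone. Of these, 9 encode histones, and Slbp encodes the protein that binds the stem-loop at the 3′ end of replication-dependent histone messages and is not itself a histone. The table held 51467 genes, of which 12851 had enough reads to be tested, and all 10 members were among them.

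The data are polysome profiles of mouse embryonic stem cells (ESCs), either wild type (WT) or knocked out for Dgcr8 (KO). Without DGCR8, a partner of the nuclear enzyme Drosha, canonical microRNAs are not made, and the profiles ask which messages change in translation when microRNAs are absent. For each genotype, 3 sucrose gradients were each collected as monosomes, low polysomes (2 to 4 ribosomes) and high polysomes (4 or more ribosomes), and the 3′ ends of polyadenylated RNA were sequenced, which gave 18 libraries in 6 groups of 3. Cells of both genotypes were grown in serum with LIF and the kinase inhibitors PD0325901 and CHIR99021 (2i) and were treated with cycloheximide, which holds ribosomes on messages, for 2 minutes at 100 ug/ml before lysis. The methods name V6.5 ESCs for the polysome profiles and, for the knockout, a Dgcr8 KO ESC line made earlier, so only 1 line is named per genotype and other differences between the lines cannot be told apart from the knockout. The labels number the replicates without saying whether they came from separate cultures, so p-values measure the spread between these samples, which may be technical.

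Histone proteins package DNA into nucleosomes. The bulk of them is made in S phase from replication-dependent genes, whose messages usually end in a conserved stem-loop in place of a poly(A) tail. Replacement variants, in contrast, can be deposited outside S phase by dedicated chaperones. ESCs divide rapidly, so they need a large supply of replication-dependent histones. How many ribosomes a message carries depends on how often translation starts and on how long its coding sequence (CDS) is, since a short CDS has room for few ribosomes.

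The 3′ ends of the members showed the contrast with replication-dependent histones that the set was named for. In 9 of the 10 representative transcripts (GENCODE M21, GRCm38), 1 of the poly(A) signals AATAAA and ATTAAA, searched on the transcript strand, lay within the last 50 bases, against 78.0% of 11763 protein-coding genes tested and 21.9% of 32 replication-dependent histone genes tested. The exception was H2afy. A match to the histone stem-loop consensus, a hairpin of 6 paired bases around a loop of 4, was found in the 3′ UTR of 1 member, H2afx, compared with 0.3% of all protein-coding genes and 71.9% of replication-dependent histones. The H2afx hairpin lay in the exon of this single-exon gene at chr9:44335240-44335255, plus strand, starting at base 47 of the 3′ UTR and ending 822 bases before the annotated transcript end. The 30 bases around it (chr9:44335233-44335262) are shown beside the 30 bases around that of the replication-dependent linker histone gene Hist1h1c (chr13:23739505-23739534, plus strand), because H2afx messages are known in both a stem-loop and a polyadenylated form. The Hist1h1c hairpin likewise ended far from its annotated transcript end, 840 bases before it. Among the replication-dependent histone genes tested, 37.5% had the hairpin in the last 100 bases, against 0 of the 10 members. Capitals mark the hairpin.
H2afx: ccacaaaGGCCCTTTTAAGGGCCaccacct
Hist1h1c: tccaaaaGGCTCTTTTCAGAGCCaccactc
Such a match is a description of these letters and not a site or a cause.

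The microRNAs that dominate in ESCs, and that Dgcr8 KO cells lack, share bases 2 to 7. In the 3 mature sequences shown here, from RefSeq (GRCm38.p6), base 8 is shared too, and capitals mark the seed (bases 2 to 8).
mmu-miR-291a-3p: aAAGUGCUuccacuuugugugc
mmu-miR-294-3p: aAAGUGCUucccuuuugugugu
mmu-miR-302b-3p: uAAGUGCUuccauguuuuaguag
The letters that pair with bases 2 to 7, GCACTT (transcript strand only), were found in the 3′ UTR of 0 of the 10 members and of 30% of the protein-coding genes tested. No match says only that these letters are not in the annotated 3′ UTR of the representative transcript.

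Library totals were 1151649 to 4984833 counts, and levels below are CPM, counts relative to library size scaled with TMM factors. A count of 3, the floor used here, corresponds to 0.689 to 2.65 CPM, and no member was at or below it in any library. The lowest member count was 8, for H3f3a in a WT monosome library. Such counts carry counting error besides the spread between gradients. Reads of Dgcr8 averaged 74.8 CPM in monosomes and 27.7 CPM in high polysomes of WT cells, and 50.2 and 15.4 CPM in those of KO cells (n = 3). They were lower in the libraries labelled KO without being lost, and a deletion away from the 3′ end can leave such reads in place. Markers of ESCs were high in every library, with a sum over 8 genes of 2352 to 4412 CPM, while 8 fibroblast feeder markers summed to 4.66 to 28.6 CPM and 6 primitive endoderm markers to 1.94 to 10.8 CPM. In high polysomes the ESC markers summed to 3636 to 4412 CPM in WT and to 2352 to 3053 CPM in KO cells. There 4 of the 8 were lower in KO cells and 0 higher (limma, adjusted p under 0.05), where 31.6% of all genes tested were lower and 29.1% higher. In monosomes the KO sums were higher (2677 to 3040.2 against 2485 to 2631 CPM), with 2 genes higher and 0 lower (17.5% and 19.9% of all genes). Low polysome sums overlapped (2823 to 3049.7 CPM in KO, 2703 to 2889 CPM in WT), with 4 genes higher and 1 lower (26.1% and 26.2% of all genes). The part of the ESC markers in the differences between genotypes below was not tested.

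In KO cells, most members were lower in high polysomes, and their reads sat lighter on the gradient than in WT cells. In high polysomes, 8 of the 10 members were called, all lower in KO than in WT cells (limma, adjusted p under 0.05, the threshold for every call below), where 60.7% of all genes tested were called, 29.1% higher and 31.6% lower. The median log2 change of the 10 members was -1.18, against -0.08 over all genes. In monosomes the same comparison called 4 members higher and 2 lower (37.3% of all genes called, 17.5% higher and 19.9% lower), with a median of 0.25 against -0.05. In low polysomes it called 2 higher and 4 lower (52.3% of all genes, 26.1% higher and 26.2% lower), with a median of -0.21 against 0. In these bulk samples, fewer cells of a type and less RNA per cell cannot be told apart, and each value is relative to the other RNA of its fraction.

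**Figure D1:**
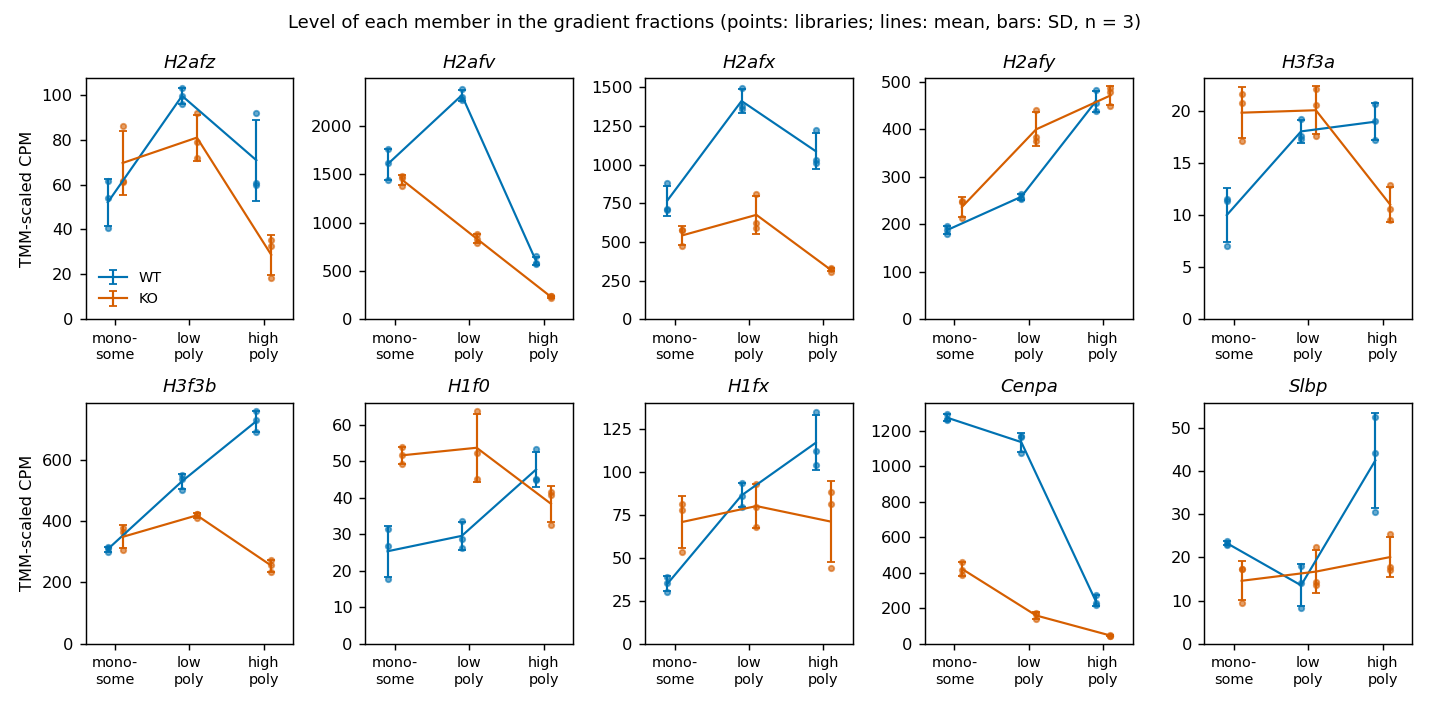
TMM-scaled CPM (linear axis, starting at 0) of each member in monosomes, low polysomes and high polysomes of WT and KO ESCs. Points are libraries, lines join means and bars are SD (n = 3). The WT mean was highest in high polysomes for 6 members and the KO mean for 2, H2afy and Slbp. The high polysome libraries of H3f3a in WT and of Slbp in KO cells overlapped those of low polysomes.

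The translation level, defined as the ratio of high polysome to monosome reads, moved in the same direction. In WT cells it was above an even ratio for 7 members and below it for 2 (54% of all genes called, 26% higher and 28% lower), with a median log2 ratio of 0.84. In KO cells 1 member was above and 7 were below (67.7% of all genes called, 32.2% higher and 35.5% lower), with a median of -0.6. The change of the ratio between genotypes, tested as the interaction of genotype and fraction, was called for 8 members, all lower in KO cells, where 28.2% of all genes tested were called, 13% higher and 15.2% lower. The median change of the 10 members was -1.28, against 0.01 over all genes. The 2 members that were not called were H2afy and Slbp. A further threshold of 1 on the size of the log2 change left 7 members called for this change (15.1% of all genes) and 6 for high polysomes (33.1%). It left 3 in monosomes (18.1%), 3 in low polysomes (25%), and 5 and 3 for the translation level within WT (30.1%) and KO cells (43%). These comparisons share libraries, so they are different views of the same 18 measurements.

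H2afz and H2afv encode the variants H2A.Z.1 and H2A.Z.2, which mark promoters and are exchanged into nucleosomes by the SRCAP and p400 complexes. Their coding sequences are both 387 bases long and differ at 81 positions (79.1% identical). H2afz counts are uncertain, because the authors dropped reads that aligned to more than 1 place. Of the 50-base windows of its representative transcript, 33.2% also occur in transcripts of 4 pseudogenes, none of them in the last 400 bases, and in a shorter annotated transcript 57.5% of the windows there were shared. None of the H2afv windows were shared. H2afz (ENSMUSG00000037894, chr3:137864487-137866922, plus strand) was at 61.6, 40.7 and 53.9 CPM in the WT monosome libraries, at 99.4, 103 and 96 CPM in low polysomes and at 91.7, 60.9 and 59.9 CPM in high polysomes. The KO libraries gave 61.1, 86.2 and 61.5 CPM in monosomes, 71.9, 92 and 78.8 CPM in low polysomes and 18.5, 32.6 and 35.2 CPM in high polysomes. All KO high polysome libraries were below all WT ones, as in low polysomes, whereas the monosome libraries overlapped. The H2afz message fell in high polysomes by 1.28 on the log2 scale (SE 0.19, adjusted p = 2.66e-07), and its translation level fell by 1.72 (SE 0.28, adjusted p = 1.04e-05). Its monosome change, 0.43, was not called (adjusted p = 0.0988), but was without KO replicate 1 (0.51, adjusted p = 0.0386). It was also called with total counts (0.54, adjusted p = 0.037) and in a fit of only the libraries compared (0.49, adjusted p = 0.0211). The low polysome change of -0.31 (adjusted p = 0.106) was likewise called without KO replicate 2 (-0.4, adjusted p = 0.0444). In WT cells the H2afz translation level was 0.43 (adjusted p = 0.0735), and it passed the test with the gradient as a block (0.44, adjusted p = 0.0172) and without KO replicate 1 (0.43, adjusted p = 0.0404). Total counts (0.51, adjusted p = 0.0312) and a fit of only the libraries compared (0.42, adjusted p = 0.0303) also gave a call.

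H2afv (ENSMUSG00000041126, chr11:6427229-6444443, minus strand) had more reads than H2afz in every library, and the part of dropped H2afz reads in that gap was not tested. In WT cells it was at 1614, 1762 and 1438 CPM in monosomes, at 2271, 2385 and 2302 CPM in low polysomes and at 575, 579.9 and 655 CPM in high polysomes. In KO cells the values were 1383, 1462 and 1479.6 CPM, then 829, 886 and 791 CPM, then 225, 238 and 238 CPM. The genotypes overlapped in monosomes and lay apart in both polysome fractions. The H2afv message fell by 1.48 in low polysomes (SE 0.1, adjusted p = 4.75e-16) and by 1.37 in high polysomes (SE 0.11, adjusted p = 4.6e-14), and its monosome change was -0.15 (95% interval -0.36 to 0.05, adjusted p = 0.247). It was depleted from high polysomes in both genotypes, with a log2 high polysome to monosome ratio of -1.41 in WT cells and -2.62 in KO cells (change -1.21, SE 0.15, adjusted p = 4.42e-08). The fraction with the highest mean moved from low polysomes in WT to monosomes in KO cells. Its high to low polysome ratio was not called as changed (0.11, 95% interval -0.18 to 0.4), unlike its low polysome to monosome ratio, which was 0.44 to 0.68 in the WT and -0.9 to -0.72 in the KO gradients (log2). Whether the H2afz and H2afv changes differ from each other was not tested.

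H2afx encodes H2A.X, the variant phosphorylated around DNA double-strand breaks. This gene (ENSMUSG00000049932, chr9:44334694-44336077, plus strand) was at 879, 714 and 709 CPM in WT monosomes, at 1497, 1359 and 1376 CPM in low polysomes and at 1221, 1028 and 1009 CPM in high polysomes. KO libraries had 575, 472 and 580.2 CPM in monosomes, 589.5, 813 and 623 CPM in low polysomes and 308, 329 and 325 CPM in high polysomes. Every KO library was below every WT library of the same fraction, and the gap widened from monosomes to high polysomes. The fitted log2 changes were -0.5 in monosomes (SE 0.12, adjusted p = 0.00123), -1.08 in low polysomes (SE 0.11, adjusted p = 2.1e-10) and -1.75 in high polysomes (SE 0.12, adjusted p = 8.7e-16). H2afx was moderately enriched in high polysomes over monosomes in WT cells (0.5, adjusted p = 0.000526) and depleted in KO cells (-0.75, adjusted p = 1.22e-06), a change of -1.25 (SE 0.17, adjusted p = 4.52e-07). Besides Cenpa it was the only member called lower in all 3 fractions. It is also the member with the stem-loop shown above. The libraries hold 3′ ends of polyadenylated RNA, so H2afx messages that end in the stem-loop may be missed. The values describe the polyadenylated form, and the part of the stem-loop in these changes was not tested.

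H2afy encodes macroH2A1, a large H2A variant with a carboxy-terminal macro domain that is associated with silent chromatin, and it has the longest CDS of the set, 1119 bases. H2afy (ENSMUSG00000015937, chr13:56073619-56136361, minus strand) was at 196, 189 and 179 CPM in WT monosomes, at 254, 256 and 265 CPM in low polysomes and at 455, 438 and 483 CPM in high polysomes. In the KO libraries it was at 247, 213 and 249.9 CPM, at 385, 375 and 441 CPM, and at 449, 478 and 488 CPM. The KO libraries were above the WT libraries in monosomes and low polysomes, and the genotypes overlapped in high polysomes. The H2afy message rose by 0.63 in low polysomes (SE 0.11, adjusted p = 3.93e-06) and by 0.33 in monosomes (SE 0.12, adjusted p = 0.0268). The monosome call was lost without WT replicate 1 (0.36, adjusted p = 0.0549), WT replicate 3 (0.29, adjusted p = 0.101), KO replicate 1 (0.29, adjusted p = 0.073) or KO replicate 3 (0.28, adjusted p = 0.101). In high polysomes its log2 change was 0.04 (95% interval -0.17 to 0.25, adjusted p = 0.748). It was enriched in high polysomes in both genotypes, with translation levels of 1.28 in WT and 1 in KO cells. The change, -0.29 (SE 0.16, adjusted p = 0.183), was not called, although all 3 KO gradients (0.86 to 1.16) were below all 3 WT gradients (1.21 to 1.43). Scaled by total counts without TMM factors it was called, at -0.61 (adjusted p = 0.00205), a scaling that moved the median of all genes to -0.322.

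H3f3a and H3f3b both encode H3.3, the replacement H3 that HIRA deposits at active genes and ATRX with DAXX at repeats. The encoded proteins are identical, while the coding sequences, each 411 bases long, differ at 95 positions (76.9% identical). H3f3b (ENSMUSG00000016559, chr11:116021912-116027962, minus strand) was at 311, 314 and 299 CPM in WT monosomes, at 502, 535 and 551 CPM in low polysomes and at 757, 728 and 689.8 CPM in high polysomes. In KO cells it was at 376, 305 and 363 CPM, at 421, 424 and 409.6 CPM, and at 274, 255 and 235 CPM. WT reads thus increased along the gradient and KO reads did not, with no overlap between genotypes in either polysome fraction. The H3f3b message fell by 1.51 in high polysomes (SE 0.11, adjusted p = 1.85e-15) and by 0.34 in low polysomes (SE 0.1, adjusted p = 0.0061), and the monosome change was 0.17 (adjusted p = 0.258). Its translation level went from 1.23 in WT to -0.45 in KO cells, a change of -1.68 (SE 0.16, adjusted p = 1.56e-10), the smallest adjusted p among the members for this comparison.

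H3f3a (ENSMUSG00000060743, chr1:180800832-180813943, minus strand) was counted at low levels, and its counts are uncertain for the same reason as those of H2afz. In all, 14.9% of the 50-base windows of the representative H3f3a transcript also occur in annotated transcripts of 38 other genes, all pseudogenes. None of those windows were in its last 400 bases, but in the 5 shorter annotated transcripts 23.1 to 80.3% of the windows there were shared. With that limit, H3f3a was at 11.4, 11.6 and 7.07 CPM in WT monosomes, at 17.6, 17.3 and 19.3 CPM in low polysomes and at 17.2, 19.1 and 20.7 CPM in high polysomes. The KO libraries had 21.7, 17.1 and 20.8 CPM, then 20.6, 22.1 and 17.6 CPM, then 9.59, 10.6 and 12.9 CPM. The genotypes were apart in monosomes, with KO higher, overlapped in low polysomes and were apart in high polysomes, with KO lower. H3f3a rose by 0.92 in monosomes (SE 0.29, adjusted p = 0.0113), which was not called without WT replicate 3, the gradient whose monosome library held 8 counts (0.74, adjusted p = 0.0687). It fell by 0.77 in high polysomes (SE 0.21, adjusted p = 0.00169). The translation level was 0.88 in WT cells and -0.81 in KO cells, a change of -1.69 (SE 0.36, adjusted p = 0.000362). Without WT replicate 3 the WT value was no longer called (0.63, adjusted p = 0.116). The 2 H3.3 genes thus had fitted changes of -1.68 and -1.69 at very different read levels. Whether these differ was not tested.

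H1f0 and H1fx encode the linker histones H1.0, which builds up in cells that stop dividing, and H1.X, and both are single-exon genes. H1f0 (ENSMUSG00000096210, chr15:79028450-79030504, plus strand) was at 26.8, 31.6 and 17.7 CPM in WT monosomes, at 26.4, 33.8 and 28.6 CPM in low polysomes and at 53.4, 45.1 and 44.9 CPM in high polysomes. In KO cells it was at 51.7, 49.3 and 54.1 CPM, at 52.3, 63.8 and 45.2 CPM, and at 32.7, 41.6 and 40.9 CPM. No fraction overlapped between genotypes, with KO above WT in monosomes and low polysomes and below it in high polysomes. H1f0 rose by 1.01 in monosomes (SE 0.22, adjusted p = 0.000257) and by 0.83 in low polysomes (SE 0.16, adjusted p = 3.33e-05). The high polysome change of -0.31 was not called (adjusted p = 0.0911), but was with total counts (-0.53, adjusted p = 0.00388) and a 10 CPM filter (-0.36, adjusted p = 0.0439). Its translation level was 0.89 in WT and -0.43 in KO cells, a change of -1.32 (SE 0.27, adjusted p = 0.000213). The KO value alone (adjusted p = 0.0182) lost its call without KO replicate 1 (-0.32, adjusted p = 0.127) or KO replicate 3 (-0.45, adjusted p = 0.0586).

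H1fx (ENSMUSG00000044927, chr6:87980421-87981637, minus strand) was at 38.8, 35.5 and 30.1 CPM in WT monosomes, at 86, 93.5 and 79.5 CPM in low polysomes and at 135, 112 and 104 CPM in high polysomes. KO cells had 53.4, 77.7 and 81.5 CPM in monosomes, 67.9, 93.2 and 79.3 CPM in low polysomes and 44, 81.1 and 88.2 CPM in high polysomes. WT reads increased along the gradient in each replicate, and the KO means differed little between fractions (70.8, 80.2 and 71.1 CPM). H1fx rose by 1.01 in monosomes (SE 0.24, adjusted p = 0.000916) and fell by 0.75 in high polysomes (SE 0.17, adjusted p = 0.000226), with -0.12 in low polysomes (adjusted p = 0.59). It had the highest translation level of the set in WT cells, 1.72 (SE 0.23), and a KO value of -0.04 (95% interval -0.41 to 0.33). The change was -1.75 (SE 0.29, adjusted p = 1.38e-05).

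Cenpa encodes CENP-A, the H3 variant that defines the centromere and is loaded by HJURP after mitosis, and it had the largest genotype difference of the set. Cenpa (ENSMUSG00000029177, chr5:30666777-30674830, plus strand) was at 1268, 1296 and 1261 CPM in WT monosomes, at 1075, 1172 and 1164 CPM in low polysomes and at 221, 231 and 277 CPM in high polysomes. The KO libraries had 387, 462 and 418 CPM, then 139, 168 and 171 CPM, then 45.6, 41.9 and 51 CPM. Each KO library was far below each WT library of its fraction. Cenpa fell by 1.6 in monosomes (SE 0.11, adjusted p = 9.68e-15), while its log2 change was -2.84 in low polysomes (SE 0.11, adjusted p = 7.51e-23) and -2.38 in high polysomes (SE 0.13, adjusted p = 1.64e-18). On the linear scale these are 3.02-fold, 7.16-fold and 5.22-fold lower levels. Like H2afv, it was depleted from high polysomes in both genotypes, with translation levels of -2.4 in WT and -3.18 in KO cells. The change of -0.79 (SE 0.17, adjusted p = 0.000525) was the smallest of those called. Its high to low polysome ratio was the only one of the set that was higher in all KO than in all WT gradients (-1.98 to -1.59 against -2.34 to -2.07). That change, 0.46 (SE 0.17, adjusted p = 0.061), was called with the gradient as a block (0.45, adjusted p = 0.0362) and without KO replicate 2 (0.56, adjusted p = 0.0282). Median-of-ratios scaling (0.49, adjusted p = 0.0411), a 10 CPM filter (0.46, adjusted p = 0.0497) and DESeq2 (0.48) also called it.

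Slbp, the stem-loop binding protein gene, had few reads and the largest standard error of the set for the change in translation level. Slbp (ENSMUSG00000004642, chr5:33634952-33652574, minus strand) was at 22.8, 23.2 and 23.9 CPM in WT monosomes, at 14.1, 8.37 and 18.1 CPM in low polysomes and at 44.1, 52.6 and 30.6 CPM in high polysomes. In KO cells it was at 17.2, 9.32 and 17.2 CPM, at 22.4, 13.5 and 14.2 CPM, and at 25.5, 17.7 and 17 CPM. KO libraries were below WT libraries in monosomes and high polysomes, and the low polysome libraries overlapped. Slbp fell in high polysomes by 1.08 (SE 0.22, adjusted p = 4.4e-05). The monosome change of -0.76 had an adjusted p of 0.0571, and without KO replicate 1 it was called (-0.88, adjusted p = 0.0308). A 10 CPM filter (-0.78, adjusted p = 0.0497) and a fit of only the libraries compared (-0.71, adjusted p = 0.0246) also gave a call. The change in translation level, -0.32 (95% interval -1.09 to 0.46, adjusted p = 0.581), was not called. The WT translation level, 0.8 (adjusted p = 0.00945), was not called without WT replicate 1 (0.74, adjusted p = 0.0733) or WT replicate 2 (0.7, adjusted p = 0.0668).

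**Figure D2:**
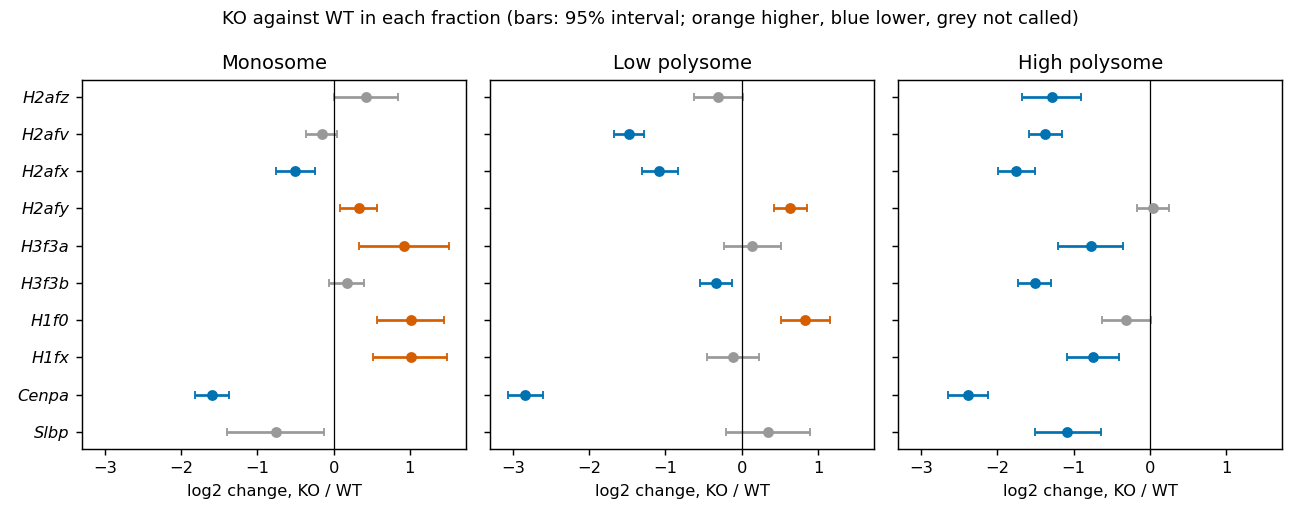
Fitted log2 change of KO relative to WT in each fraction for the 10 members, with 95% intervals that are not adjusted for multiple tests. Colours mark calls at an adjusted p under 0.05. All 10 changes lie further to the left in high polysomes than in monosomes, and Cenpa is lowest in every fraction.

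Single gradients gave the same picture without a fit. For 9 members the high polysome to monosome ratio was lower in all 3 KO gradients than in all 3 WT gradients, as it was for 21.4% of all genes tested (20.3% had all KO gradients higher), and the ratios of Slbp overlapped. H3f3b had log2 ratios of 1.28, 1.21 and 1.2 in the WT gradients and of -0.46, -0.26 and -0.62 in the KO gradients. For H1fx the ratios were 1.77, 1.64 and 1.76 in WT and -0.28, 0.06 and 0.11 in KO gradients. The low polysome to monosome ratio was lower in all KO gradients for 6 members (15.1% of all genes) and higher for 2, H2afy and Slbp (15.3% of all genes). In 6 members, WT reads had their highest mean in high polysomes, in 3 members in low polysomes and in 1, Cenpa, in monosomes. In KO cells, low polysomes held the highest mean for 6 members, monosomes for H2afv and Cenpa, and high polysomes for H2afy and Slbp. Some of these peaks were close, with libraries that overlapped another fraction: H3f3a in WT cells, and H2afz, H3f3a, H1f0, H1fx and Slbp in KO cells. The KO means in low polysomes and monosomes were 20.1 and 19.8 CPM for H3f3a, and 53.7 and 51.7 CPM for H1f0. Peak fractions were not counted over all genes.

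**Figure D3:**
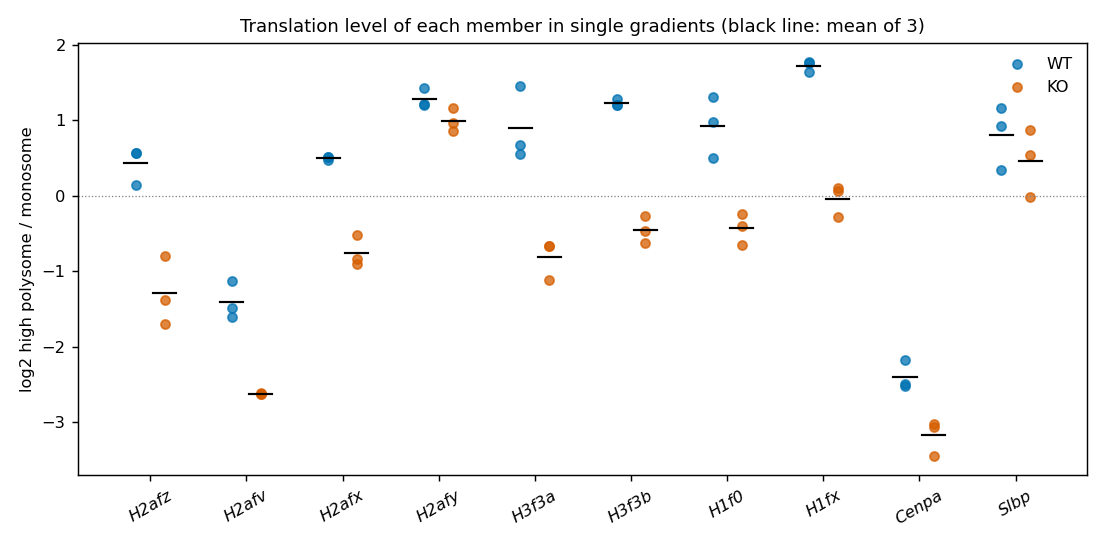
Log2 ratio of high polysome to monosome reads in each of the 3 WT and 3 KO gradients for every member, with black lines at the means. KO points lie below WT points for 9 members and overlap with them for Slbp.

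The high to low polysome ratio separated the members further. It was lower in all KO gradients than in all WT gradients for 8 members (18.4% of all genes) and higher for Cenpa (16.1% of all genes). In the fit it changed for 7 members, all lower in KO cells, where 17.8% of all genes were called, 7.52% higher and 10.3% lower. Slbp had the largest change (-1.42, SE 0.35, adjusted p = 0.00324), from log2 ratios of 0.74 to 2.55 in WT gradients, and it was not called without WT replicate 2 (-0.86, adjusted p = 0.118). H3f3b (-1.17, adjusted p = 1.2e-06), H1f0 (-1.14, adjusted p = 0.000399), H2afx (-0.68, adjusted p = 0.00339) and H2afy (-0.59, adjusted p = 0.00458) kept their calls without any 1 gradient. Those of H2afz (-0.98, adjusted p = 0.00496) and H3f3a (-0.91, adjusted p = 0.0191) did not, with -0.78 (adjusted p = 0.0506) for H2afz without WT replicate 1. For H3f3a the adjusted p was 0.0931, 0.061, 0.0737 and 0.0655 without WT replicate 2, WT replicate 3, KO replicate 1 and KO replicate 2. H1fx was not called (-0.63, adjusted p = 0.0629), but was with the gradient as a block (-0.62, adjusted p = 0.0144) and without KO replicate 3 (-0.83, adjusted p = 0.0358). With total counts it was called too (-0.83, adjusted p = 0.00937). With the threshold of 1 on the log2 change, 3 members were called for this change (5.18% of all genes). Within genotypes, 5 members were higher and 4 lower in high than in low polysomes of WT cells (53.1% of all genes called, 25.9% higher and 27.2% lower), and 1 was higher and 7 lower in KO cells (56% of all genes, 25.9% higher and 30.1% lower). Of these, the WT calls of H1fx, H2afz and H2afx and the KO calls of H2afy and H1f0 were lost without single gradients. The values without them were 0.32 to 0.52 for H1fx (without WT replicate 1, 2 or 3), -0.4 and -0.44 for H2afz (WT replicate 2 or 3) and -0.37 for H2afx (WT replicate 2). They were 0.18 to 0.29 for H2afy (each gradient in turn except WT replicate 2) and -0.37 and -0.39 for H1f0 (KO replicate 1 or 2).

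The members differ in length in a way that runs alongside these changes. In 8 members the CDS is 387 to 585 bases long, and these were the 8 called lower in translation level. The other 2, Slbp (828 bases) and H2afy, were not called. Among all 932 tested protein-coding genes with a CDS of 387 to 585 bases, the median change in translation level was -0.84, with 52.6% called lower and 1.29% higher. Among 1740 genes with a CDS of 828 to 1119 bases, the median was -0.21, with 17.8% called lower. Spearman's rho between CDS length and the change was 0.558 across 11763 genes, which are not independent replicates and share the same libraries. The 8 short members ranged from -0.79 (Cenpa, 405 bases) to -1.75 (H1fx, 567 bases), and 7 of them lay below the -0.84 of genes of like length. Within these 8 the changes were not in order of length. In high polysomes, genes with a CDS of 387 to 585 bases had a median KO change of -0.96, and 67% of them were called lower. In WT cells these genes had a median translation level of -0.2, with 24.2% called above an even ratio and 38.5% below it. Of the 8 short members, H1fx, H3f3b, H1f0, H3f3a and H2afx were each called above it. H2afv (-1.41) and Cenpa (-2.4) were called below it, and H2afz was not called. The length ranges were chosen after the members' values were seen. The part of CDS length in the members' changes was not tested.

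**Figure D4:**
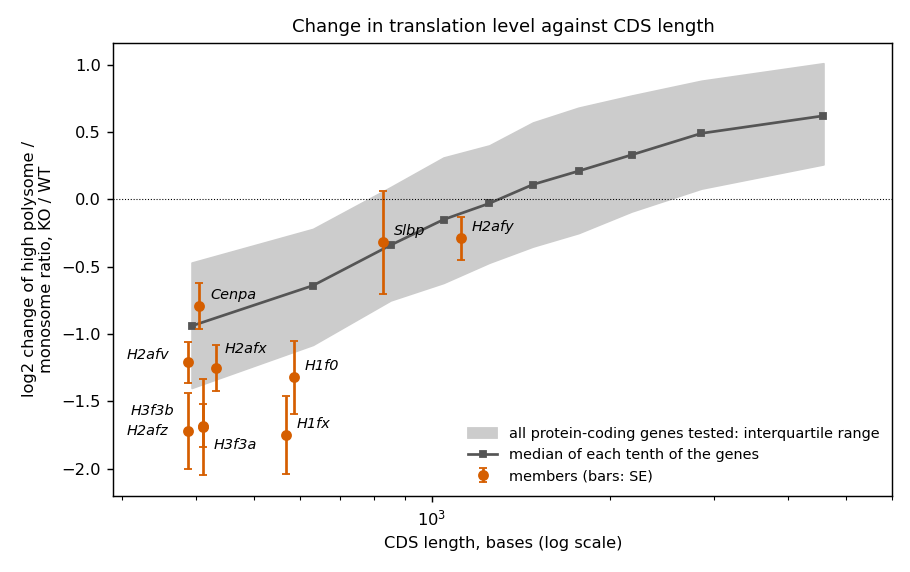
Log2 change in translation level (KO relative to WT) against CDS length on a log axis. Orange points are members with SE bars, grey squares are medians of 10 groups of protein-coding genes tested, ordered by CDS length, and the band is their interquartile range. The medians go from -0.94 at a median CDS of 393 bases to 0.62 at 4587 bases, and the 8 short members sit at the lower left.

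Across the 18 libraries, the members fell into different patterns of level. Pearson's r of log2 CPM, given as a description over libraries that share 6 groups, was highest for H2afv and Cenpa (0.938), the 2 members depleted from high polysomes in both genotypes. The closest partner of H2afx was H3f3b (0.81), that of H2afz was H2afx (0.766) and that of H3f3a was H1f0 (0.705). H2afy ran opposite to Cenpa (-0.851) and H2afv (-0.822). Slbp had no close partner, with 0.384 to H3f3b as its highest value. H2afz was thus closer to H2afx than to its paralog H2afv, and H3f3b closer to H2afx than to H3f3a.

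The replication-dependent histones, whose reads in a poly(A)-primed library come from messages that carry a poly(A) tail or an internal A-rich stretch, were set beside the members. Of 68 such genes in the table, 32 were tested, and of these 17 were called in translation level, all lower (15.2% of all genes fell), with a median of -1.67 (-1.49 with genes at the count floor set to their bounds). In high polysomes 24 were called, all lower (31.6% of all genes fell), with a median of -1.71 (-1.63 with bounds). Among the 932 protein-coding genes with a CDS of 387 to 585 bases, 52.6% fell in translation level and 67% in high polysomes. The replication-dependent histones were not matched with other genes for CDS length. The members' values were 8 of 10 lower for both, with medians of -1.28 and -1.18. All 5 replication-dependent linker histone genes tested fell in translation level (median -1.72), where H1f0 and H1fx had -1.32 and -1.75. Hist1h1b, which encodes H1.5, averaged 588 CPM in WT and 50.3 CPM in KO high polysomes (log2 change -3.56, SE 0.19, adjusted p = 3.01e-19). The replacement linker histones H1f0 and H1fx had -0.31 and -0.75 in the same comparison, beside a median of -2.34 for the 5 genes. In monosomes the median of those 5 was -0.72, whereas H1f0 and H1fx each rose by 1.01. Counts of replication-dependent histones are uncertain because many are near-identical copies. Of 11 other replacement variants in the table, 2 were tested. H2afj, an H2A variant gene, fell in translation level by 1.84 (SE 0.3, adjusted p = 1.07e-05), and H2afy2, which encodes macroH2A2, fell by 0.48 in high polysomes (adjusted p = 0.00789) and was not called for translation level.

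Genes of the pathways that handle the variants were more mixed. Among 39 tested chaperone and exchange complex genes, 9 rose and 6 fell in translation level (median 0.17), where 13% of all genes tested rose and 15.2% fell, so the share that fell was near that of all genes. Those that fell most were Asf1a, an H3-H4 chaperone (-1.34, adjusted p = 1.02e-05), Znhit1, a subunit of the SRCAP complex that exchanges H2A.Z (-1.33, adjusted p = 8.54e-06), and Dek, an H3.3 chaperone (-0.9, adjusted p = 0.000607). Ep400, the ATPase of the p400 complex (1.11, adjusted p = 9.33e-05), and Supt6, a histone chaperone of transcription elongation (1.29, adjusted p = 0.000155), rose. Among 18 tested genes of histone pre-mRNA processing other than Slbp, 10 rose and 2 fell (median 0.7), beside the same 13% and 15.2% of all genes. Both that fell are small subunits, Lsm10 of the U7 snRNP (-1.58, adjusted p = 8.6e-07) and Ncbp2 of the cap-binding complex (-1.02, adjusted p = 2.12e-05), and Slbp itself was at -0.32. Npat, the coactivator of replication-dependent histone transcription, rose (0.95, adjusted p = 0.0247). Of 21 tested genes around CENP-A at the centromere, 12 fell and 1 rose in high polysomes (median -0.74), where 31.6% of all genes fell. In translation level 7 fell and 1 rose (median -0.3), where 15.2% of all genes fell. In monosomes 6 were called, all lower (median -0.19), not far from the 19.9% of all genes that fell there. Cenpm and Cenpw, of the inner kinetochore, fell in monosomes by 1.12 (adjusted p = 1.12e-07) and 0.81 (adjusted p = 3.23e-07), beside 1.6 for Cenpa. For Cenpf the monosome change was -0.75 (adjusted p = 0.000893), while its translation level rose (0.59, adjusted p = 0.0492).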

How the data were processed

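The authors trimmed reads with Cutadapt 1.14, aligned them to mm10 with STAR 2.5.3a, keeping single-locus alignments, and deposited raw counts per gene over GENCODE M14 exons, made with strand-specific featureCounts 1.5.3. No use of molecular identifiers was stated. The 92 spike-in entries (0.000522 to 0.00215% of reads) were left out.

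Genes with at least 3 CPM in at least 3 libraries were fitted with limma-voom (limma 3.58.1, edgeR 4.0.16 for TMM factors, R 4.3.3), with 6 group means and no block. The interaction term for translation level and the filter follow the study, while voom and TMM were chosen here. All adjusted p-values are limma's, two-sided, with the Benjamini-Hochberg method applied across the 12851 genes. Ratios per gradient used log2 CPM with a prior count of 2. Fractions of 1 gradient are paired by the labels. Deviations from group means correlated at 0.03 to 0.14 between fractions of the same gradient (18 pairs). Replicates were not alike within sampling noise (chi-square per gene 1.92 to 7.48). The fitting code was tested on simulated data.

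Transcript features came from GENCODE M21 (51274 genes matched), with 1 representative transcript per gene. Windows of 50 bases were compared with all annotated transcripts. The members and lists were chosen with earlier results of these data known, and the CDS length ranges after the members' values were seen. The text names all members, Dgcr8 and, from each other list, up to 3 called genes per direction and comparison with the largest change and a mean count of 50 or more. Alternatives were total-count and median-of-ratios scaling, edgeR, DESeq2 1.42.0, no filter, a 10 CPM filter, a log2 threshold of 1, separate fits, the block and leaving out each gradient.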

Additional observations from a re-analysis of the deposited data

Results flagged for a closer look

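For 15 results, the effect of fraction differed between WT and KO cells by the interaction test in limma at an adjusted p under 0.05. In 8 of these the high polysome to monosome ratio was lower in KO cells: H2afz by a log2 change of -1.72, H2afv by -1.21, H2afx by -1.25, H3f3a by -1.69, H3f3b by -1.68, H1f0 by -1.32, H1fx by -1.75 and Cenpa by -0.79. In the other 7 the high to low polysome ratio was lower in KO cells: H2afz by -0.98, H2afx by -0.68, H2afy by -0.59, H3f3a by -0.91, H3f3b by -1.17, H1f0 by -1.14 and Slbp by -1.42. Groups of 3 libraries are too small for the test of single outlying samples.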

How the results depend on the processing

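Over 14 alternatives and 9 comparisons, 1199 of 1260 member values kept their side of the threshold. Another 38 kept the direction and lost the call, 23 gained one, and 0 values with a call reversed. Values without a call in either fit could change sign, such as H2afy in high polysomes (0.04, and -0.18 with total counts). Adding a log2 threshold of 1 lowered the number of members called to 3 in monosomes and 3 in low polysomes. For high polysome against monosome, 5 were left in WT and 3 in KO cells. For high against low polysome, 3 were left in WT (23.6% of all genes) and 4 in KO cells (25.8%). The change of that ratio was left with 3. The threshold left 6 in high polysomes and 7 for the change in translation level. Total counts in place of TMM factors moved the median of all genes from 0.01 to -0.322 for the change in translation level, with 9 members called lower, and from -0.08 to -0.306 for KO against WT in high polysomes. The replicate block left 86 of 90 member values on their side of the threshold and added 4 calls. Of these, 3 are given above, and the other, Slbp in monosomes (-0.68, adjusted p = 0.0461), used replicate numbers that WT and KO gradients share only as numbers (correlation of deviations 0 to 0.1, 9 pairs). No other call changed under the block. Low counts limit H3f3a, Slbp and H1f0 most, and 3 gradients per genotype limit every call near the threshold.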
